A study of Mus musculus with 5 samples.

Results

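Gypc, Slc4a1, Ank1, Sptb, Rhag, Epor, Car2 and Tmod1 encode proteins of the red cell membrane, its skeleton and the erythroid cell surface, together with the cytosolic enzyme carbonic anhydrase 2. These 8 genes were taken by symbol from the 18349 genes with a listed mRNA level, and all 8 were found. PABPC1 peaks and deletion sites were taken where they lay on the strand of one of these genes, inside its span in GENCODE mouse release M21 on mm10. The samples were MEL cells, a mouse erythroleukemia line: 3 PABPC1 CLIP-seq samples and 2 mRNA-seq samples of poly(A)+ RNA. The CLIP-seq samples were irradiated 3 times at 400 mJ/cm2 and treated with RNase for 10 min and with DNase. The labels give no drug treatment or genotype, and both assays used the same line. The authors' names for the pooled values of both assays give the starting day, read here as cells that had not been induced to mature. A transformed line at 1 condition limits what the values say of red cell precursors in an animal. The study asked whether PABPC1, which coats the poly(A) tails of mRNAs in the cytoplasm, also binds sequences encoded in the genome.

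The red cell membrane rests on a meshwork of alpha- and beta-spectrin joined at short actin filaments. Ankyrin ties beta-spectrin to the anion exchanger band 3 and to the Rh proteins, and protein 4.1 ties the actin junctions to glycophorin C. These proteins are made during terminal erythroid maturation, for which the erythropoietin receptor signals at an earlier stage. MEL cells are arrested at a precursor stage and mature further only when induced.

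CLIP-seq links protein to RNA with ultraviolet light and sequences the RNA fragments left on the protein. The authors pooled the replicates into 1 list of 90337 peaks, 1 list of 11907 deletion sites and 1 RPKM (reads scaled to gene length and to the size of the library) for each gene. There is thus no replicate error on any of the values given here, and no difference between samples could be tested. Peak height is the authors' score, read as tags, with a median of 9 over all peaks. A deletion site is a base missing from some tags, which reverse transcriptase leaves at cross-links, and its median over 3' UTR sites was 10.4% of tags. Of 10 erythroid markers 9 reached RPKM 1, with Gata1 at 211 and Klf1 at 428, while the early progenitor marker Kit stood at 0.234. Of 10 fibroblast markers, checked because the labels also name NIH-3T3 fibroblasts, 5 were not listed and only Thy1 (65.3) and Pdgfrb (2.60) reached RPKM 1. Of 10 markers of other blood cells, the megakaryocyte genes Pf4 (216) and Itga2b (103) and the leukocyte gene Ptprc (11.8) did. The summed RPKM was 1012 for the erythroid list, 69.0 for the fibroblast list and 332 for the other blood cell list. The part of such cells in the values below was not tested.

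All 8 genes carried PABPC1 peaks in exons, mainly in the 3' UTR. An exonic peak was held by 87.0% of the 12331 genes with RPKM of at least 1 and by 96.6% of the protein-coding ones, so the presence of a peak does not set these genes apart. Their 61 exonic peaks summed to 4330 tags, and 3704 tags, 85.5%, belonged to peaks with their midpoint in a 3' UTR, beside 78.0% over all peaks in mRNA exons. There were 39 peaks in 3' UTRs, 22 in coding sequence (CDS), 0 in 5' UTRs and 4 in introns. The tallest exonic peak had its midpoint in the 3' UTR in 7 of the 8, Epor being the exception. Of protein-coding genes at RPKM 1 or more with a peak, 90.2% had theirs there. Slc4a1 is below that RPKM, and without it the count was 6 of 7. Outside Epor the CDS peaks were low, at 3 to 42 tags.

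**Figure D1:**
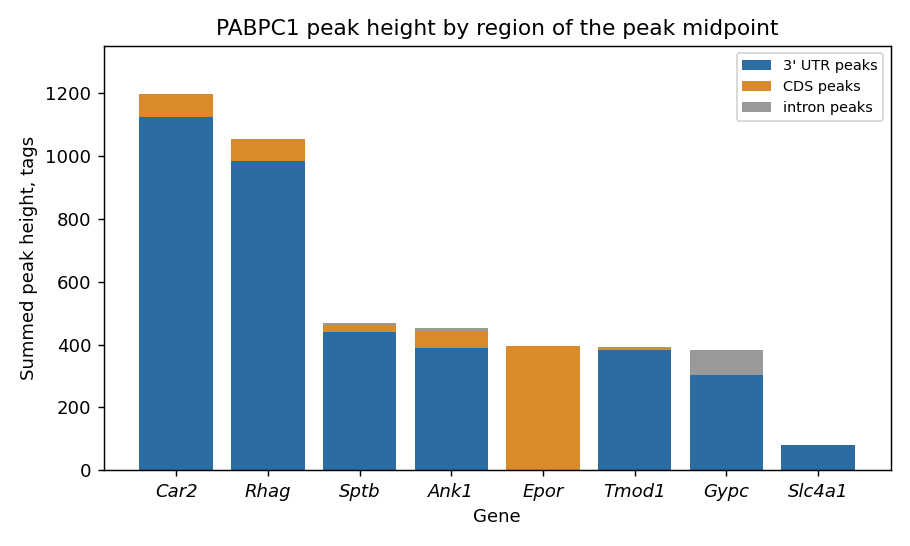
Bars give the summed height of PABPC1 peaks in tags for each gene, split by the region under the peak midpoint (3' UTR, CDS or intron). Car2 (1198 tags) and Rhag (1054) stand above the other 6 genes, Epor is held by 1 peak whose midpoint lies in CDS, and Gypc alone has a tall intron peak, at 79 tags.

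The mRNA levels spanned more than 3 orders of magnitude. Car2 stood at RPKM 261, Epor at 225, Rhag at 114, Sptb at 51.5, Ank1 at 32.0, Gypc at 31.7, Tmod1 at 16.3 and Slc4a1 at 0.122. In such bulk samples fewer cells of a type and less RNA per cell cannot be told apart. With no value per replicate, neighbours in this order such as Ank1 and Gypc cannot be told apart. The median of the 8 was 41.8, beside 17.5 over the 12331 genes at RPKM 1 or more, and 7 of the 8 were among these. For 6 of the 8 the RPKM returned a whole number of reads: 22063 for Sptb, 15252 for Ank1, 9431 for Rhag, 2605 for Gypc, 2265 for Tmod1 and 21 for Slc4a1 (95% Poisson interval 13.0 to 32.1, counting error only). Epor and Car2 did not give whole numbers with the gene length used here, so their reads are not given.

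Height relative to abundance was expressed as log2((summed exonic height + 1)/(RPKM + 1)), a scale that understates the ratio of genes near 0. It was 6.19 for Slc4a1, 4.50 for Tmod1, 3.75 for Ank1, 3.22 for Gypc, 3.19 for Rhag, 3.14 for Sptb, 2.20 for Car2 and 0.81 for Epor. The median of the 8 was 3.21, beside 2.43 over the 12331 genes and 2.78 over protein-coding genes, and 6 of the 8 lay above both. Height is not divided by length and RPKM is. With height per kb of exon in its place the ratio was 4.07 for Slc4a1, 2.85 for Tmod1, 2.01 for Gypc, 1.97 for Rhag, 1.36 for Car2, 0.56 for Ank1, -0.0030 for Epor and -0.41 for Sptb, beside a median of 0.91 over all genes. Ank1 and Sptb then lay below the median of all genes and Car2 above it, so that 5 of the 8 lay above, and these positions depend on the scaling by length. The exon length used here is that of basic transcripts, which can be shorter than the length behind the RPKM. For Ank1 these were 9343 and 13527 nt. For Car2 the basic length was 1788 nt and that over all annotated transcripts 2422 nt. Whether Car2 stays above the median with the longer length was not tested. Per kb of exon the order of CLIP levels was Car2 at 670 tags, Rhag at 451, Epor at 224, Gypc at 130, Tmod1 at 124, Ank1 at 47.5, Sptb at 38.6 and Slc4a1 at 17.8. Car2 and Rhag lay at the 97.4th and 95.5th percentile of genes at RPKM 1 or more by this measure, Ank1 and Sptb near the middle at 55.1 and 50.2, and Slc4a1 below these.

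**Figure D2:**
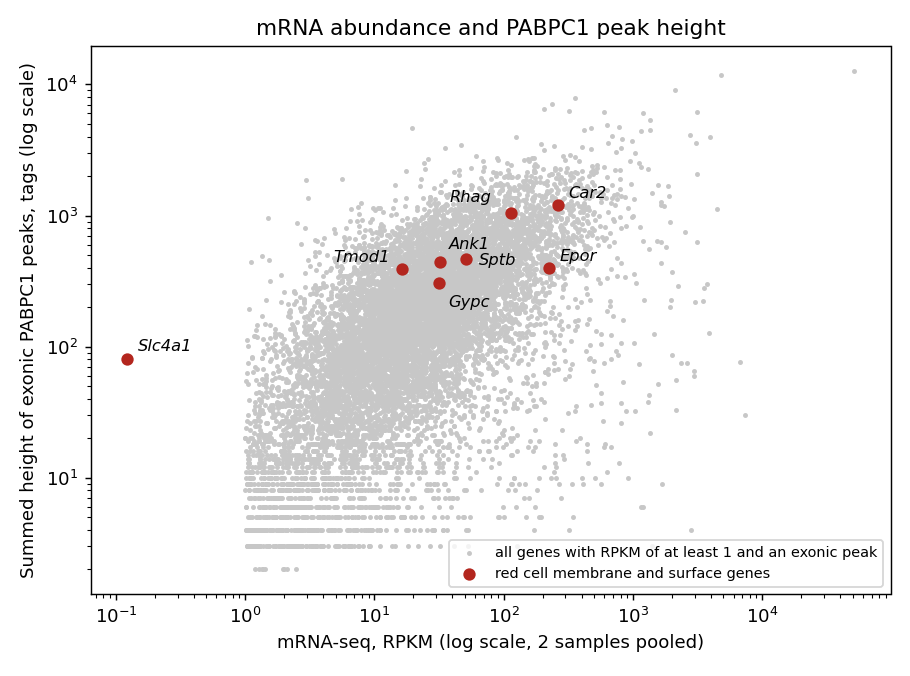
Each point is a gene, with mRNA level (RPKM, log axis) against summed height of its exonic PABPC1 peaks (tags, log axis); grey points are genes at RPKM 1 or more that hold an exonic peak, red points the 8 genes. Slc4a1 lies far to the left at RPKM 0.122 with 81 tags, and Epor lies lower than Car2 at a similar RPKM.

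Ank1 encodes ankyrin-1, the adaptor between beta-spectrin and band 3. The gene lies on chromosome 8 (22974844 to 23150497, plus strand) and held 18 exonic peaks, 9 in the 3' UTR and 9 in CDS, with a summed height of 444 tags. Its 11 basic transcripts end at 9 positions, and its 3 tallest peaks each covered at least 1 of them. A peak of 212 tags (chr8:23150254-23150502) covered the 2 farthest ends, 1 of 96 tags (chr8:23149138-23149357) covered the ends at 23149279 and 23149281, and 1 of 30 tags (chr8:23148640-23148703) covered the end at 23148694. A peak of 27 tags (chr8:23148536-23148633) covered no annotated end and lay 61 nt from the nearest. No exonic peak lay within 50 nt of the ends at 23149688 and 23149933. The 212-tag peak held a run of 8 A, the longest such run under the tallest peak of any of the 8 genes. The 212-tag and 96-tag peaks each held an AATAAA, the main poly(A) signal, shown here in capitals.
Ank1, 212-tag peak, chr8:23150467-23150494: gtcaaattAATAAAgaaacggactcatg
Ank1, 96-tag peak, chr8:23149253-23149282: atgaaaacAATAAAtactatgcaaaccaat
Another AATAAA of this 3' UTR, at 23149876 to 23149881 and 613 nt before the end at 23150494, lay under no peak. It is upstream of the annotated end at 23149933, which had no exonic peak within 50 nt. No AATAAA was found under the 30-tag peak. The only deletion site of Ank1 was deleted in 3 of 3 tags, too few to give a share (exact 95% interval 29.2% to 100%). The microRNA gene Mir486, nested in Ank1 on the same strand, was listed at RPKM 4.43 and the nested pseudogene Gm15815 at 2.11, and neither had a peak or deletion site.

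Sptb encodes beta-spectrin. The gene lies on chromosome 12 (76580488 to 76710547, minus strand) and its 10 exonic peaks summed to 463 tags, of which 389 tags, 84.0%, were in 1 peak (chr12:76597303-76597780). That peak lay in the last exon of the shorter transcript Sptb-202, covered its stop codon with 124 nt of CDS and 354 nt of 3' UTR, and ended 1173 nt from the nearest annotated end. The last exon of Sptb-202 held 4 peaks with 423 tags in all, while that of the longer Sptb-201 held 3 peaks with 17 tags. At the annotated end of Sptb-202 the peak had 22 tags. An AATAAA lay under the 389-tag peak, 1314 nt before the end, and another under the 22-tag peak, 16 nt before it. They are shown because the tall peak is at the signal with no annotated end beside it.
Sptb, 389-tag peak, chr12:76597428-76597457, minus strand: tctagtctAATAAAttttatgggataaaat
Sptb, 22-tag peak, chr12:76596130-76596159, minus strand: ttgggaggAATAAAatttgcttaaatctga
Sptb held no deletion site, although its tallest peak exceeded 200 tags. Its neighbour Plekhg3, which meets it on the other strand, stood at RPKM 12.5 with 3 exonic peaks and 88 tags.

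Tmod1 encodes tropomodulin-1, which caps the pointed ends of the short actin filaments. On chromosome 4 (46038935 to 46116032, plus strand) it held 11 exonic peaks with 391 tags, 9 of them in a 3' UTR of 1654 nt. Height was spread over the 3' UTR: the tallest peak, of 156 tags (chr4:46115908-46116033), held 39.9% of the total, and the next had 70, 67 and 40 tags. It held 3 deletion sites. At position 46116006, 26 nt from the end, 24 of 152 tags lacked the base, 15.8% (exact 95% interval 10.4% to 22.6%), and 19 of 151 lacked the adjoining base. At position 46115673, 359 nt from the end, it was 18 of 60 tags, 30% (18.8% to 43.2%). The windows show the deleted bases in capitals, and the first holds the ATTAAA signal that ends 13 nt before the transcript end.
Tmod1, 26 nt before the end, chr4:46115992-46116021: tcactggaaactgcAAaataatattaaagc
Tmod1, 359 nt before the end, chr4:46115659-46115687: actgttcttgtgccTtttaatagaccaca
The 3' UTR of Tmod1 overlaps Tstd2 on the other strand, which had RPKM 14.7, 9 exonic peaks and 214 tags. The peaks carry a strand. The sources used here do not say whether mRNA reads were counted by strand, so the RPKM of Tmod1 may include reads of Tstd2.

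Slc4a1 encodes band 3, the chloride and bicarbonate exchanger and the main ankyrin-binding protein of the membrane. Its mRNA was close to absent, at 21 reads, yet 5 peaks with 81 tags lay on its 3' UTR (chromosome 11, 102348824 to 102366203, minus strand). The peaks had 36, 26, 9, 5 and 5 tags, and the tallest ran to the annotated end (chr11:102348824-102348953), over an AATAAA in this window.
Slc4a1, 36-tag peak, chr11:102348824-102348852, minus strand: gttttgccAATAAAcgtgtctgtgttaaa
Among 833 protein-coding genes with an RPKM within 2-fold of that of Slc4a1, 151 held an exonic peak, 18.1%, and the median summed height was 0. No peak of Slc4a1 lay in CDS, and the gene had no deletion site. CLIP-seq and mRNA-seq were separate libraries, both named for the starting day, and whether the cultures differed was not tested.

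Rhag encodes the Rh-associated glycoprotein, which carries the Rh complex and is related to ammonium transporters. On chromosome 17 (40811126 to 40840754, plus strand) it held 7 exonic peaks with 1054 tags. Its 2 tall peaks covered 625 and 273 of the 972 nt of 3' UTR, with 725 tags in a peak that began in CDS and ran over the stop codon (chr17:40839706-40840407) and 260 tags up to the end (chr17:40840482-40840764). The 5 peaks in CDS had 10 to 24 tags. All 6 deletion sites lay in the 3' UTR, and the share of tags deleted was larger nearer the end. At 466 nt before the end it was 3.88% (9 of 232 tags; exact 95% interval 1.79% to 7.24%), at 401 nt 6.50% (16 of 246; 3.76% to 10.3%), at 176 nt 15.3% (29 of 189; 10.5% to 21.3%) and at 54 nt 25.5% (54 of 212; 19.8% to 31.9%). The interval of the site at 54 nt does not overlap those at 466 and 401 nt, and overlaps that at 176 nt. Coverage was alike at these sites, at 189 to 253 tags, so these shares rest on similar counts. The sequences are given from the far to the near site.
Rhag, 466 nt, chr17:40840274-40840302: tctatccgcaacccTttagcttcctaatg
Rhag, 401 nt, chr17:40840339-40840368: tgaagtcaaaggacATattaaagagtctat
Rhag, 176 nt, chr17:40840564-40840593: gtaaataaaaagcaATattaatgttctagt
Rhag, 54 nt, chr17:40840686-40840714: atttgtaataggagTttaaaagccatctg
The 176 nt window holds an AATAAA, and the 401 nt window an ATTAAA that adjoins the deleted bases. In both, the deleted bases are followed directly by a second AT.

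Epor encodes the erythropoietin receptor. Although its mRNA was among the more abundant of the 8, its CLIP signal was 1 peak of 395 tags (chr9:21958896-21959260, minus strand) on chromosome 9. The peak ran from the annotated end over all 162 nt of 3' UTR and the stop codon into 202 nt of CDS, so its midpoint counts as CDS although a large part of it is 3' UTR. Among 836 protein-coding genes with an RPKM within 2-fold of that of Epor the median summed height was 639.5 tags. The quartiles were 361 and 1042, so Epor lay below the median and inside the quartiles. This height is not scaled to length. Per kb of exon Epor lay at percentile 88.1 of genes at RPKM 1 or more, while its RPKM lay at percentile 95.5 of them. The percentile per kb is thus not matched for RPKM. The log2 ratio of height per kb to RPKM was -0.0030 for Epor, below the median of 0.91 over all genes. Among genes of like RPKM, Gypc, Sptb, Car2, Ank1, Tmod1 and Rhag lay at percentiles from 61.7 (Gypc) to 86.4 (Rhag). Its 2 deletion sites adjoined, 17 and 18 nt before the end, with 11 deletions each in 77 and 78 tags, 14.3% and 14.1% (exact 95% intervals 7.35% to 24.1% and 7.26% to 23.8%). Neither AATAAA nor ATTAAA lay in its 3' UTR. The deleted AT is the last unit of an AT repeat.
Epor, chr9:21958900-21958929, minus strand: aaatatatatatatATcgatttttctacct

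Car2 encodes carbonic anhydrase 2, the cytosolic enzyme that hydrates carbon dioxide and supplies the bicarbonate that band 3 exchanges. It had both the highest RPKM and the largest summed height of the 8, with 1198 tags in 3 exonic peaks on chromosome 3 (14886273 to 14900770, plus strand). The main peak, of 1123 tags (chr3:14899968-14900770), covered the whole last exon, with 120 nt of CDS, the stop codon and all 680 nt of 3' UTR. The 2 CDS peaks had 42 and 33 tags. The site farthest from the end had the largest share deleted: at position 14900201, 569 nt from the end, 44 of 207 tags lacked the base, 21.3% (exact 95% interval 15.9% to 27.5%). At position 14900671, at 99 nt, it was 26 of 448 tags, 5.80% (3.83% to 8.39%), and at position 14900742, at 28 nt, 61 of 740, 8.24% (6.36% to 10.5%). Position 14900735, covered by 942 tags, was deleted in 11, 1.17% (0.584% to 2.08%). Deletions were thus rarest, among these sites, where coverage was highest. The last window holds both the sites at 35 nt and at 29 and 28 nt.
Car2, 569 nt, chr3:14900187-14900215: tggtattgtagaccTtttacctctcatcc
Car2, 99 nt, chr3:14900657-14900686: ggatgtaaaaattgATatagttgtgataca
Car2, 35 to 28 nt, chr3:14900724-14900753: tggataatgtaTtttagATatattctctaa
An AATAAA starts at position 14900752, downstream of the last deleted base, and ends 13 nt before the transcript end.

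Gypc encodes glycophorin C, the membrane anchor of protein 4.1. On chromosome 18 (32528322 to 32560034, minus strand) it held 6 exonic peaks with 304 tags, all with their midpoint in the 3' UTR. The tallest, of 252 tags, held 82.9% of that height and reached past the annotated end by 2 nt. It contained 1 AATAAA and 1 ATTAAA, and the other 5 peaks had 5 to 19 tags. The 19-tag peak lay 39 nt from the remaining annotated end of Gypc. An intron peak of 79 tags and 44 nt (chr18:32548528-32548571) stood apart from them. Only 196 of 12220 intron peaks in the list, 1.60%, were as tall, and their median was 5 tags. Gypc had no deletion site.

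**Figure D3:**
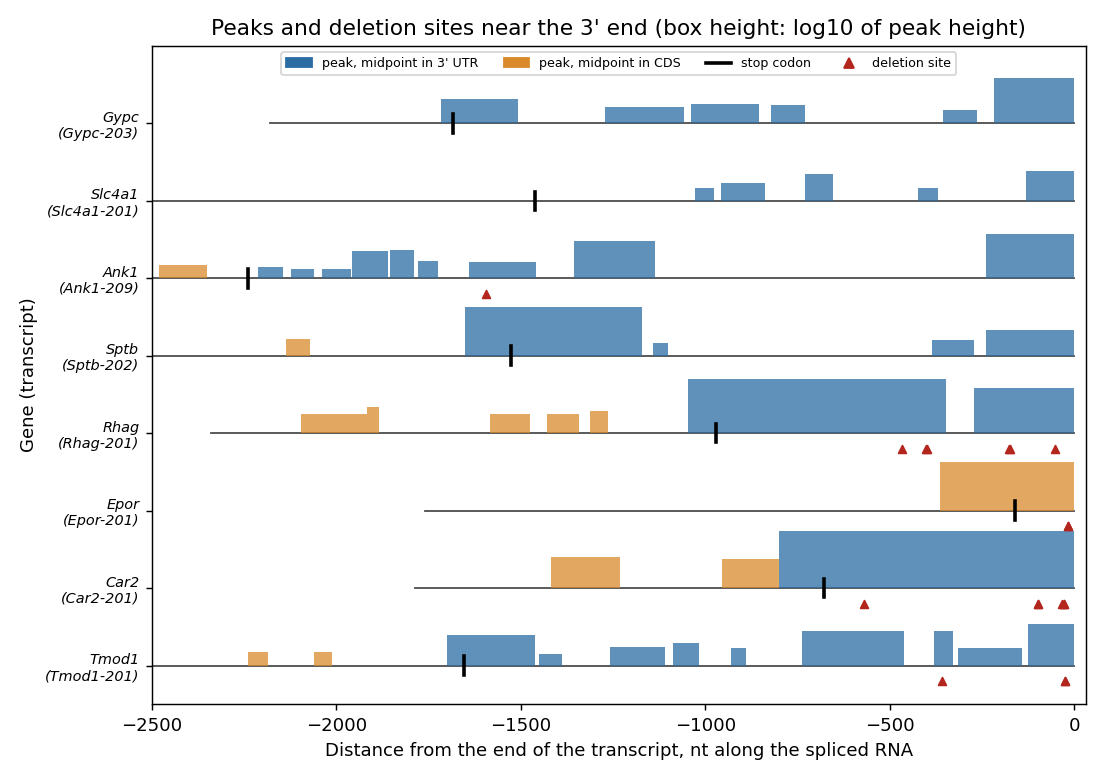
Peaks and deletion sites are drawn along the 3' part of 1 spliced transcript a gene, by distance from its end in nt; boxes are peaks with a height that follows the log10 of peak height, black bars are stop codons and triangles deletion sites. The tallest peak reaches the end of the drawn transcript in Gypc, Slc4a1, Ank1, Epor, Car2 and Tmod1, while in Sptb it lies at the stop codon.

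Set side by side, the tallest peak came within 50 nt of an annotated transcript end in 7 of the 8 genes, Sptb being the exception. The share was 61.2% over protein-coding genes at RPKM 1 or more with a peak. Slc4a1, counted among the 8, is below that RPKM. The tallest peak covered an annotated stop codon in Sptb, Rhag, Epor and Car2, 4 of the 8, beside 22.6% of the same protein-coding genes. In Rhag the annotated end it covered was that of the shorter transcript Rhag-203. In Rhag, Epor and Car2 1 peak spanned both marks, with no share over all genes to set beside this. The share of A under the tallest peak was above that of the whole 3' UTR in 2 genes, Gypc (35.6% and 27.8%) and Ank1 (29.9% and 22.1%), and below it in the other 6. The values were 20.0% under the peak and 24.6% in the 3' UTR for Slc4a1, 22.6% and 23.8% for Sptb, 29.9% and 31.3% for Rhag, 23.9% and 30.2% for Epor, 32.4% and 32.6% for Car2, and 28.8% and 29.9% for Tmod1. The peaks of Sptb, Rhag, Epor and Car2 include CDS. Those of Epor and Car2 hold the whole 3' UTR, so their difference reflects only the added CDS. No share over all genes is set beside this comparison, and some differences, as in Car2, are small. Of the 7 exonic peaks of at least 200 tags, 4 held a deletion site (both of Rhag, and those of Epor and Car2), beside 69.6% of the 3303 exonic peaks of that height. The 3 without one were the tallest peaks of Gypc, Ank1 and Sptb.

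The 18 deletion sites lay in 5 of the 8 genes (Rhag and Car2 with 6 each, Tmod1 with 3, Epor with 2 and Ank1 with 1), while 31.4% of genes with RPKM of at least 1 and 37.0% of protein-coding ones held one in an exon. All 18 lay in 3' UTRs, beside 90.0% of the 9723 sites in mRNA exons. The deleted base was T at 11 sites and A at 7, and C or G at 0. No share over all sites is set beside these bases or the block types below. Whether they differ from those of other genes was not tested. The motifs counted were the hexamer ATATAA, the poly(A) signal AATAAA and a run of 6 A. At least 1 lay within 20 nt of 4 of the 18 (2 adjoining sites in Rhag and 2 in Car2), beside 48.6% of all exonic sites. The signal ATTAAA was not in this count, and it lay within 20 nt of the sites at 401 nt in Rhag and 26 nt in Tmod1. The sites formed 12 blocks of adjoining bases: 6 single T, 5 AT pairs with the same number of deletions at both bases, and 1 AA pair in Tmod1. Each single T was the first of a run of T, and each AT stood beside a repeat of its own letters.

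That repetition bears on position. In all 12 blocks the deleted bases can be moved along the RNA with the same sequence left after the deletion, by 2 to 4 nt in 11 blocks and by 12 nt in Epor, and in all 12 the listed position is the lowest coordinate on the chromosome. Over all exonic sites 95.1% of 7469 blocks could be moved and 98.5% of those stood at their lowest coordinate. A deletion in Epor, on the minus strand, may thus lie up to 12 nt farther from the end than listed, and the others up to 4 nt nearer to it.

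**Figure D4:**
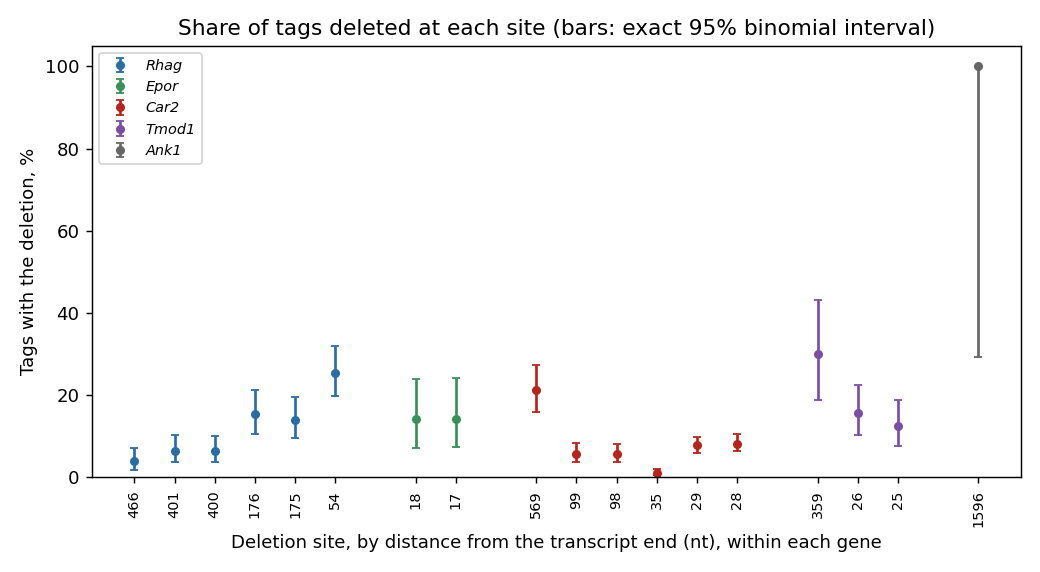
Points give the percent of tags deleted at each of the 18 sites, with exact 95% binomial intervals (counting error only), ordered within each gene from far to near the transcript end in nt. Shares are larger toward the end in Rhag (3.88% at 466 nt, 25.5% at 54 nt), while in Car2 (21.3% at 569 nt) and Tmod1 (30% at 359 nt) the farthest site is the highest. In Tmod1 the interval at 359 nt (18.8% to 43.2%) overlaps that at 26 nt (10.4% to 22.6%). The single Ank1 site rests on 3 tags.

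The other genes of the same structures are set beside the shares among protein-coding genes at RPKM 1 or more, of which 96.6% held an exonic peak and 37.0% a deletion site. The counts of genes with a peak in these lists were close to that general rate. Of 20 further genes of the membrane skeleton and its relatives, 18 reached RPKM 1, all 18 held an exonic peak and 10 a deletion site. The largest summed heights were 4725 tags for beta-actin (Actb), 1709 for the tropomyosin gene Tpm1 and 1479 for protein 4.1 (Epb41). Of 29 surface protein genes 24 reached RPKM 1, all 24 held a peak and 12 a deletion site, led by the integrin gene Itgb1 (1842), the signal-regulatory ligand gene Cd47 (1711) and the water channel gene Aqp1 (1215). Of 18 genes of ion and solute transport and carbonic anhydrases 14 reached RPKM 1, all 14 held a peak and 9 a deletion site. Car1, the other abundant cytosolic carbonic anhydrase gene, had 3247 tags at RPKM 806, and the calcium pump gene Atp2b1 had 620. Car1 thus exceeded Car2 in both measures, while the log2 ratio of height to RPKM was 2.20 for Car2 and 2.01 for Car1.

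Of 22 genes that act downstream of or beside the erythropoietin receptor, 21 reached RPKM 1, 20 of these held a peak and 9 a deletion site. Against the 395 tags of Epor itself, the kinase gene Akt1 had 2010, the phosphatase gene Ptpn6 759 and the exchange factor gene Sos1 745. Jak2, the kinase that Epor uses, had 680 tags at RPKM 99.8. Only the feedback inhibitor gene Socs3, at RPKM 1.08, held no peak. Among genes at RPKM 1 or more, the median log2 ratio of height to RPKM was 2.73 for the skeleton, 3.49 for surface proteins, 2.13 for transport and carbonic anhydrases and 3.09 for receptor signalling, beside 2.43 over all such genes. Gypc, Rhag, Sptb and Car2 stood between the lowest and the highest of these list medians, Slc4a1, Tmod1 and Ank1 above them and Epor below.

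**Figure D5:**
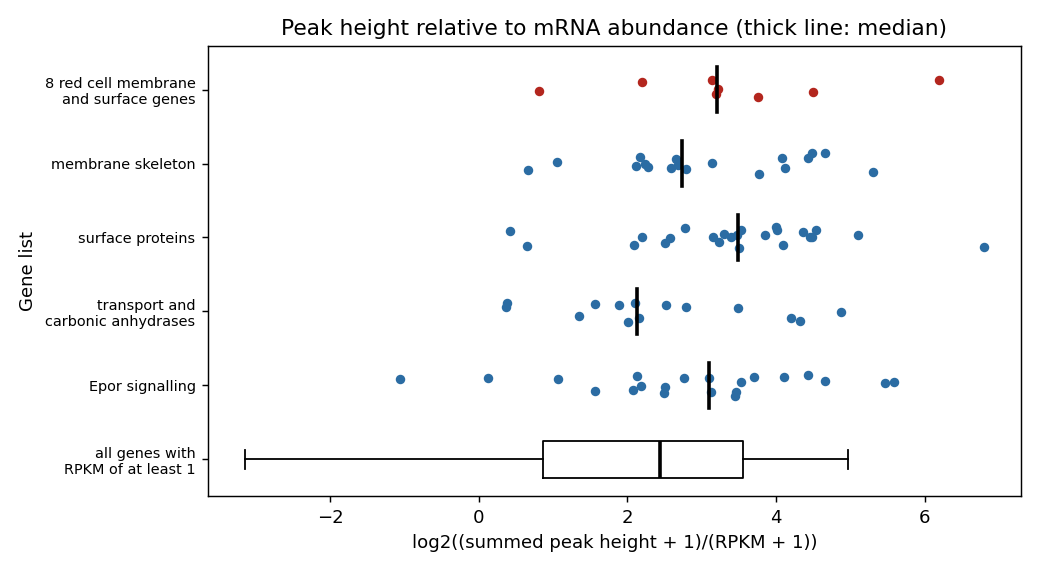
Points are genes and thick lines medians of log2((summed peak height + 1)/(RPKM + 1)) in the 8 genes and in 4 further lists (genes with RPKM of at least 1, plus Slc4a1 among the 8); the box gives the quartiles and whiskers the 5th to 95th percentile of all genes with RPKM of at least 1. The 8 genes range from 0.81 (Epor) to 6.19 (Slc4a1), and the lists overlap widely.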

How the data were processed

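Deposited files were used as the authors made them. The authors' RPKM pool both mRNA-seq samples, and no gene is listed at 0. The deposited deletion counts are whole numbers of tags, given with the tags that cover the base. The authors' peak score was read as height, since 99.8% of 10137 deletion sites inside a peak had no more tags than its score. Per the submitters' processing notes, HTSeq 0.6.0, TopHat2 2.0.12, Novoalign 3.02.02 and cutadapt 1.4.2 were used with mm10. The role of each and the thresholds are not given in the sources used here.

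Sites were placed with bedtools 2.31.1 on GENCODE M21 basic transcripts by strand, peaks by their midpoint, in the order 3' UTR, 5' UTR, CDS, non-coding exon, intron. Of the listed identifiers, 290 were not found. Reads were recovered from RPKM and collapsed gene length: 100% of the 3560 genes under 200 reads whose versioned identifiers matched gave whole numbers within 0.01, for 35251228 pooled reads. Sequences came from GENCODE transcripts, and the drawn transcript is the one whose exons hold the most height. Intervals are exact (Clopper-Pearson or Poisson) and cover counting error only. Scripts were tested on simulated data. Genes and lists were chosen with earlier results of these data known. From each further list the 3 genes with most height and every gene with RPKM of at least 1 and no peak are named, except 1 gene that is not reported here, and Jak2 was named after its values were seen. The counts at transcript ends and stop codons and the comparison of repeats were chosen after seeing the data.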

Additional observations from a re-analysis of the deposited data

How the results depend on the processing

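The authors deposited pooled values, so leaving out a replicate could not be run. No paired analysis was possible because the files hold 1 pooled column for each assay. The number of exonic peaks followed the height required: 31 with peaks of at least 10 tags and 11 with at least 50 tags, in place of 61. Peaks of at least 50 tags left 7 of the 8 genes with a peak, Slc4a1 being without one, and raised the 3' UTR share of height to 89.5%. With all annotated transcripts, an alternative added after seeing the data, that share was 86.8%. Per kb of exon the median log2 ratio of the 8 was 1.66, beside 0.91 over all genes, with 5 of the 8 above it in place of 6, and with the tallest peak 2.79, beside 1.60. With at least 10 deletions 16 sites in 4 genes were left, Ank1 being without one, and with windows of 50 nt 6 sites lay near a motif. The tallest peak came within 20 nt of an annotated end in 7 genes, and within 50 nt of the end of the drawn transcript in 6. Joining sites within 10 nt gave 11 runs in place of 18 sites, all in 3' UTRs, and other counts were not run with it. CDS first where transcripts differ and any overlap with an exon changed none of the counts or shares run with them, and a pseudocount of 0.1 gave a median log2 ratio of 3.23. Depth limits Slc4a1 (21 reads) and the site of Ank1 (3 tags).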
